A study of Mus musculus with 6 samples.

Results

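The splicing factor genes described here are the mouse protein-coding genes whose symbol starts with Hnrnp, Snrp, Sf3a, Sf3b or U2af, or is Srsf followed by a number. They were chosen by symbol and biotype, without a threshold on any measured value, and 55 of the 55401 genes in the count tables met the rule. By family these were 20 Hnrnp, 11 Srsf, 12 Snrp, 9 Sf3a or Sf3b (called Sf3 here) and 3 U2af genes. The families were proposed with results of this comparison already known, so the counts below describe the members and are not independent evidence of a direction.

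The samples were RAW264.7 cells, a mouse macrophage-like line established from the ascites of a tumour induced by Abelson murine leukaemia virus, labelled as wild type. The Nop16 siRNA group held 3 libraries of cells transfected with an siRNA against Nop16 at 20 nM for 3 days with Lipofectamine RNAi Max. The control siRNA group held 3 libraries. The labels repeat that transfection text for all 6 samples, and for the control siRNA no dose or sequence is stated in the labels. Nop16 encodes a nucleolar protein known from yeast as a factor of large ribosomal subunit assembly. Poly(A)-selected RNA was sequenced from directional libraries, and fragments were counted per gene. Since no label ties the replicates to separate cultures, the p-values below speak of library-to-library spread, part of which could be technical.

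Pre-mRNA splicing removes introns through the spliceosome, which is built from small nuclear ribonucleoproteins (snRNPs). Each snRNP pairs a small nuclear RNA with a ring of Sm or Sm-like proteins and with proteins particular to that snRNP. The U2 snRNP recognises the branch point with the help of the SF3A and SF3B complexes, after the U2AF heterodimer has bound the polypyrimidine tract and the 3′ splice site. SR proteins mostly promote and hnRNP proteins often oppose the use of nearby splice sites. Many SR and hnRNP genes are also known to adjust their own mRNA through alternative exons that send transcripts to nonsense-mediated decay.

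Total counts ran from 15601477 to 18635089 in the Nop16 siRNA libraries and from 19778237 to 23061922 in the control siRNA libraries, so each control library was the deeper one in every pair across groups. Nop16 itself had 3.94, 4.15 and 4.56 CPM (fragment counts over TMM-scaled library size, times 1e+06) in the Nop16 siRNA libraries, against 17.7, 18.8 and 20.2 CPM in the control siRNA libraries. It stood at 22.4% of the control level (log2 fold change −2.16, SE 0.12, edgeR adjusted p = 2.94e-23). Of 8 macrophage markers, 7 averaged above 5 CPM, while the markers of T or NK cells, B cells and epithelium summed to at most 0.326 CPM in any library, those of fibroblasts to at most 1.63 CPM and those of endothelium to at most 2.58 CPM. The macrophage marker sum was itself higher with Nop16 siRNA, at 7233 to 7610 CPM against 4658 to 4925 CPM with control siRNA, and its part in the results below was not tested. Lyz2 carried most of that difference, at 2934 CPM with Nop16 siRNA and 1144 CPM with control siRNA, while Ptprc (526 and 576 CPM) and Fcgr1 (39.2 and 50.3 CPM) were lower in mean and Adgre1 was at 7.86 and 7.81 CPM. Across all genes, edgeR's quasi-likelihood test called 6482 of 14269 genes tested, which is 45.4%, with 23.0% higher and 22.4% lower at a Benjamini-Hochberg adjusted p below 0.05.

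The sequence before the start of 2 members is shown. Each candidate was a called member with a single RefSeq promoter window whose start lay in a GENCODE transcript. The bases of that window lay wholly outside the gene's annotated span. A limit on chromosome was applied as well, so families without a sequence here may still hold members that meet the other criteria. In the Hnrnp and Srsf families the candidate with the largest fall was taken. This rule was tightened after earlier picks had been seen. Each line is the 150 bases before the RefSeq start on the GRCm38.p6 build, read 5′ to 3′ on the gene's strand, and capitals mark matches to the 12 motifs named with the promoter results further on.
Hnrnpd, chr5:99978939-99979088, minus strand: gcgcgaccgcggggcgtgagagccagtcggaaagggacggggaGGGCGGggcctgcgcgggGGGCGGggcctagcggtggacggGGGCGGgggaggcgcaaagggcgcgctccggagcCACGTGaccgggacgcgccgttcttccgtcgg
Srsf1, chr11:88047223-88047372, plus strand: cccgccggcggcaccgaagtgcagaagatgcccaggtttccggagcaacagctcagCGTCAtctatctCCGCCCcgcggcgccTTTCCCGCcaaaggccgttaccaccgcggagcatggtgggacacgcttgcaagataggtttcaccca

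Most of the splicing factor genes were lower with Nop16 siRNA, by small amounts. Of the 53 members tested, 39 were called lower, 4 higher and 10 neither, which is 81.1% called in either direction. The median log2 fold change over the 53 was −0.20, beside a median of 0.00 to 2 decimals over all genes tested, and members ran from −0.55 to 0.18. All 53 lay under a 1.5-fold difference, as did 86.9% of all genes tested. The 55 members together took 8376, 8475 and 8452 CPM in the Nop16 siRNA libraries, against 9723, 9588 and 9547 CPM in the control siRNA libraries. The means were 8434 ± 51.7 and 9620 ± 92.2 CPM (SD, n = 3 each), so the sum with Nop16 siRNA was 87.7% of that with control siRNA and the groups did not overlap. CPM measures a gene's level relative to the other counted mRNA, after TMM scaling. With each library thinned to the smallest total, 38 falls and 4 rises were called among members. In bulk RNA, less RNA per cell and fewer cells that express a gene cannot be told apart.

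Library by library, the 3 Nop16 siRNA values all lay below the 3 control siRNA values for 39 members and all above them for 3 members, and overlapped for 11. Over all genes tested, 52.5% had groups that did not overlap. The median member was more abundant than the median gene, so a second background was formed after these values had been seen. Among the 8137 protein-coding genes at least as abundant as the lowest tested member, Hnrnph3, 58.9% were called and 27.2% were called lower, and their median lay at 0.02 on the log2 scale. Per length, the median member stood at 23.3 CPM per kilobase with Nop16 siRNA and 27.7 with control siRNA, while the median tested protein-coding gene stood at 6.63 and 6.57. The 2 members that were not tested, Srsf12 and Snrpn, had no count in any library, which allows up to 0.194 CPM in the shallowest.

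**Figure D1:**
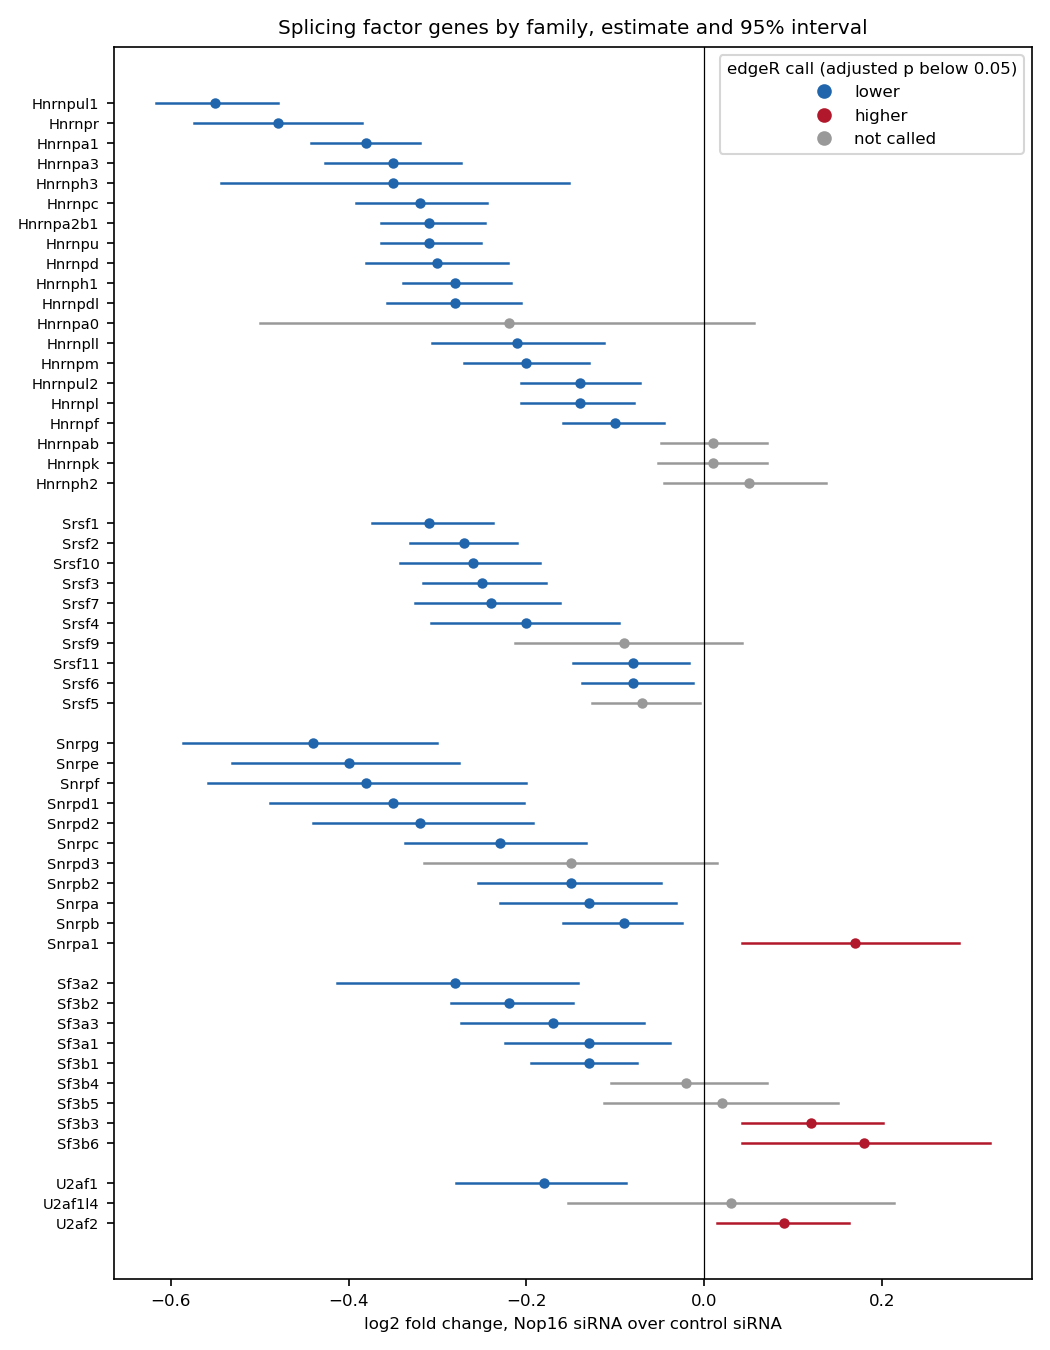
Log2 fold change of each of the 53 tested members, Nop16 siRNA over control siRNA (points), with its 95% interval (lines), grouped by family and coloured by the edgeR call. Most points lie left of 0, from −0.55 for Hnrnpul1, and the 4 called rises are Snrpa1, Sf3b3, Sf3b6 and U2af2.

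The Hnrnp genes had the lowest median, −0.28, with 16 of 20 called lower and none called higher. No Hnrnp gene was higher at an unadjusted p below 0.05 either, nor by DESeq2 or limma-voom, and the highest log2 fold change in the family was 0.05. Their summed level was 4752 ± 41.6 CPM with Nop16 siRNA and 5541 ± 56.9 CPM with control siRNA (SD, n = 3 each), or 85.8%. These proteins coat nascent RNA and act in splicing, export and stability.

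Hnrnpul1 (ENSMUSG00000040725, chr7:25721165-25754757, minus strand), which encodes a protein related to the nuclear matrix protein hnRNP U, had the largest difference of any member. It had 158, 158 and 161 CPM in the Nop16 siRNA libraries, against 235, 226 and 236 CPM in the control siRNA libraries. The groups were far apart compared with their spread, at 68.4% of control with a 95% interval of 0.652 to 0.717 as a ratio (log2 fold change −0.55, SE 0.0341, edgeR adjusted p = 3.3e-21). Its close relative Hnrnpul2 fell less, to 188 ± 2.85 CPM with Nop16 siRNA, against 207 ± 1.37 CPM with control siRNA (log2 fold change −0.14, SE 0.0334). As a description, chosen after values were seen, the ratio of Hnrnpul1 to Hnrnpul2 in CPM was 0.853, 0.832 and 0.844 with Nop16 siRNA and 1.14, 1.08 and 1.14 with control siRNA. Near copies of Hnrnpul2 elsewhere in the gene models held counts equal to 27.3% of its own with Nop16 siRNA and 25.9% with control siRNA.

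Hnrnpr (ENSMUSG00000066037, chr4:136310942-136359447, plus strand) is an hnRNP that also acts in mRNA transport in neurons. It had 66.0, 75.8 and 75.6 CPM with Nop16 siRNA, against 99.9, 104 and 99.8 CPM with control siRNA. All 3 Nop16 siRNA libraries were lower, and the first of them was the lowest (log2 fold change −0.48, SE 0.0471, edgeR adjusted p = 3.68e-13). Hnrnpa1 (ENSMUSG00000046434, chr15:103240432-103246692, plus strand), the best studied antagonist of SR proteins, had 306, 321 and 317 CPM with Nop16 siRNA, against 405, 412 and 413 CPM with control siRNA. The groups did not overlap and the level was 0.768 times that of the control (log2 fold change −0.38, SE 0.0301, edgeR adjusted p = 8.19e-17). Hnrnpa3 (ENSMUSG00000059005), a paralogue of Hnrnpa1, had 116, 124 and 121 CPM with Nop16 siRNA, against 159, 150 and 152 CPM with control siRNA (log2 fold change −0.35, SE 0.038). Its count is uncertain. The authors counted multi-mapped fragments for every gene they matched, and 39 near copies of Hnrnpa3 held counts equal to 944% of its own with Nop16 siRNA and 995% with control siRNA.

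The other core hnRNP genes fell by similar amounts. Hnrnpa2b1 and Hnrnpc, whose proteins belong with hnRNP A1 to the core of hnRNP particles, had log2 fold changes of −0.31 and −0.32. Hnrnpa2b1 had 567, 598 and 605 CPM with Nop16 siRNA, against 729, 750 and 708 CPM with control siRNA. Hnrnpu, a nuclear scaffold-associated RNA-binding protein, had 515, 524 and 527 CPM with Nop16 siRNA, against 652, 651 and 636 CPM with control siRNA. These 2 genes carried the largest drops in absolute CPM, and neither had groups that overlapped. Hnrnph3, Hnrnpd and Hnrnpdl lay at −0.35, −0.30 and −0.28 on the log2 scale. Hnrnpd encodes AUF1, which binds AU-rich elements of unstable mRNAs, and its level was 102 ± 3.03 CPM with Nop16 siRNA and 125 ± 2.64 CPM with control siRNA (SD, n = 3 each). Smaller falls were called for Hnrnpll, a regulator of Ptprc (CD45) splicing in T cells, at −0.21, for Hnrnpm at −0.20, for Hnrnpl at −0.14 and for Hnrnpf at −0.10. Hnrnpm shared 14.7% of its exon bases on the same strand with March2, so part of its count may belong to either gene.

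Hnrnpf (ENSMUSG00000042079), a binder of G-rich sequence, was the most abundant member per length, at 157 CPM per kilobase with Nop16 siRNA and 169 with control siRNA. It had 477, 478 and 482 CPM with Nop16 siRNA, against 518, 512 and 514 CPM with control siRNA (log2 fold change −0.10, SE 0.0284, edgeR adjusted p = 0.00222). The fall was small but larger than the spread within either group. Near copies held counts equal to 59.2% of its own with Nop16 siRNA and 59.8% with control siRNA, so its level is uncertain. Its paralogue Hnrnph1 had 321, 330 and 325 CPM with Nop16 siRNA, against 401, 396 and 386 CPM with control siRNA (log2 fold change −0.28). Hnrnph2, which is very similar in protein sequence to Hnrnph1, was not called, with 77.9, 73.4 and 77.2 CPM with Nop16 siRNA, against 74.9, 72.2 and 73.7 CPM with control siRNA. The ratio of Hnrnph1 to Hnrnph2 in CPM, again chosen after values were seen, was 4.11, 4.50 and 4.21 with Nop16 siRNA and 5.36, 5.48 and 5.23 with control siRNA.

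Some of the most abundant hnRNP genes were not called. Hnrnpab (ENSMUSG00000020358), a relative of AUF1, had 358, 359 and 357 CPM with Nop16 siRNA, against 366, 338 and 361 CPM with control siRNA. The groups overlapped, and the 95% interval of the ratio was 0.967 to 1.05 (log2 fold change 0.01, SE 0.031, edgeR adjusted p = 0.753). Hnrnpk, a poly(C)-binding hnRNP, had 500 ± 15.3 CPM with Nop16 siRNA and 498 ± 8.22 CPM with control siRNA (SD, n = 3 each), with an interval of 0.965 to 1.05. Hnrnpa0, which has a single-exon gene, had 201, 176 and 162 CPM with Nop16 siRNA, against 218, 192 and 217 CPM with control siRNA. Its libraries spread more than those of its relatives, its groups overlapped, and its adjusted p was 0.167 in edgeR's robust fit and 0.000485 with the robust option off. Without Nop16 siRNA library 1 or control siRNA library 2 it was 0.000144 and 0.045.

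**Figure D2:**
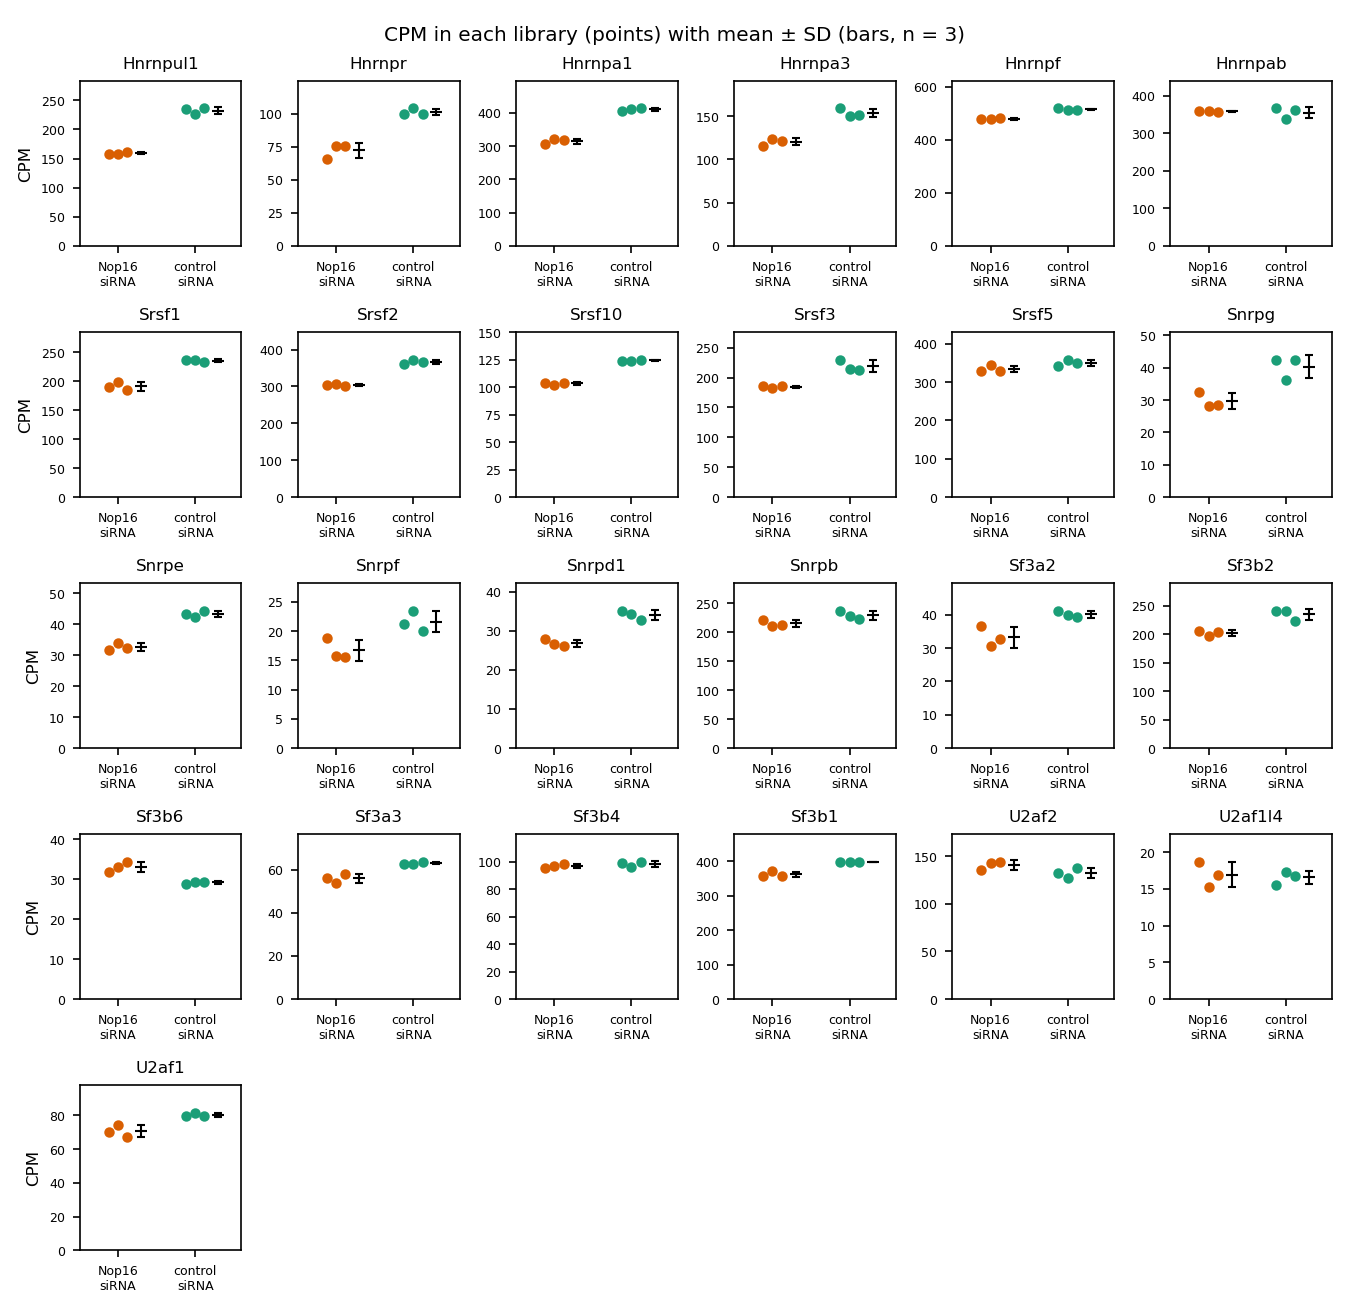
CPM of the 25 members named by rule in each library (points, Nop16 siRNA left and control siRNA right), with the mean ± SD of the 3 libraries (black bars). Groups are apart for Hnrnpul1, Hnrnpr, Hnrnpa1 and Srsf1 and overlap for Hnrnpab, Srsf5, Sf3b4, U2af2 and U2af1l4.

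Among the Srsf genes, which encode SR proteins, 8 of 10 tested were called lower and none higher, and all 10 had log2 fold changes below 0, from −0.31 to −0.07 with a median of −0.22. Their summed level was 1829 ± 28.4 CPM with Nop16 siRNA and 2067 ± 20.0 CPM with control siRNA (SD, n = 3 each), or 88.5%. Srsf1 (ENSMUSG00000018379, chr11:88047373-88053755, plus strand), the founding SR protein and the gene of the second promoter stretch shown above, had 190, 198 and 184 CPM with Nop16 siRNA, against 237, 236 and 233 CPM with control siRNA. The groups did not overlap (log2 fold change −0.31, SE 0.0337, edgeR adjusted p = 1.57e-11). Srsf2 (ENSMUSG00000034120, chr11:116849901-116853094, minus strand), also known as SC35, had 304, 306 and 302 CPM with Nop16 siRNA, against 360, 373 and 367 CPM with control siRNA (log2 fold change −0.27, SE 0.0301, edgeR adjusted p = 2.06e-11). It was the most abundant Srsf gene per length, at 103 CPM per kilobase with Nop16 siRNA and 124 with control siRNA.

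Srsf10 (ENSMUSG00000028676), which acts as a splicing repressor when dephosphorylated, had 104, 102 and 104 CPM with Nop16 siRNA, against 124, 124 and 125 CPM with control siRNA. Its replicates were the tightest of the Srsf genes in the control siRNA group (log2 fold change −0.26, SE 0.0392, edgeR adjusted p = 7.49e-08). Srsf3 (ENSMUSG00000071172), the smallest of the classical SR proteins, had 185, 182 and 186 CPM with Nop16 siRNA, against 230, 215 and 212 CPM with control siRNA (log2 fold change −0.25, SE 0.0347, edgeR adjusted p = 1.7e-08). Srsf7, closely related to Srsf3, and Srsf4 lay at −0.24 and −0.20. The calls of Srsf11 and Srsf6, both at −0.08, rested on adjusted p-values of 0.0339 and 0.0446 in edgeR and were lost with DESeq2, at 0.0677 and 0.0739. That of Srsf11 was also lost without Nop16 siRNA library 1, at 0.175, and without control siRNA library 1 or 2, at 0.133 and 0.0733. That of Srsf6 was lost without Nop16 siRNA library 1 or 3, at 0.121 and 0.0822, and without control siRNA library 1 or 2, at 0.109 and 0.178. It was also lost with each library thinned to the smallest total, at an edgeR adjusted p of 0.0941, and with the robust option off, at 0.0516.

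Srsf5 (ENSMUSG00000021134), an SR protein known in rat as the product of an insulin-induced gene, was not called. It had 329, 344 and 330 CPM with Nop16 siRNA, against 343, 359 and 349 CPM with control siRNA, so the groups overlapped (ratio interval 0.916 to 0.997, edgeR adjusted p = 0.0724). Its call depended on the scaling and was gained with library sizes alone, at an adjusted p of 0.014, and when Nop16 siRNA library 2 or control siRNA library 1 was left out, at 0.0304 and 0.0484. Srsf9 had 37.3 ± 0.741 CPM with Nop16 siRNA and 39.6 ± 0.697 CPM with control siRNA (SD, n = 3 each). Its groups did not overlap, but the difference was not called (edgeR adjusted p = 0.27).

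The symbol rule did not use transcript annotation. In GENCODE, 9 of the 10 tested Srsf genes had at least 1 transcript annotated for nonsense-mediated decay, as did all 3 U2af genes. Among all tested members this held for 50.9%, among the Hnrnp genes for 10 of 20, among the Snrp genes for 36.4%, among the Sf3 genes for 11.1%, and among the 11579 tested protein-coding genes for 30.1%. The deposited counts sum all transcripts of a gene, so productive and decay-bound isoforms were not separated.

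Of the Snrp genes, which encode Sm proteins and proteins of the U1 and U2 snRNPs, 9 of 11 tested were called lower and 1 higher, and the median lay at −0.23 on the log2 scale. Their summed level was 628 ± 18.1 CPM with Nop16 siRNA and 709 ± 18.9 CPM with control siRNA (SD, n = 3 each), or 88.7%. The largest falls of the family were in the ring proteins. Snrpg (ENSMUSG00000057278, chr6:86371304-86379328, plus strand), Sm protein G, had 32.4, 28.2 and 28.5 CPM with Nop16 siRNA, against 42.5, 36.2 and 42.3 CPM with control siRNA. The highest Nop16 siRNA library was still below the lowest control library (log2 fold change −0.44, SE 0.0714, edgeR adjusted p = 4.76e-07). Snrpe (ENSMUSG00000090553), Sm protein E, had 31.6, 34.1 and 32.5 CPM with Nop16 siRNA, against 43.4, 42.2 and 44.4 CPM with control siRNA (log2 fold change −0.40, SE 0.0638, edgeR adjusted p = 3.13e-07). Snrpf (ENSMUSG00000020018), Sm protein F, had 18.8, 15.8 and 15.5 CPM with Nop16 siRNA, against 21.3, 23.5 and 20.0 CPM with control siRNA (log2 fold change −0.38, SE 0.0895, edgeR adjusted p = 0.000335). The proteins of these 3 genes form a subcomplex of the Sm ring. Near copies held counts equal to 13.1% of those of Snrpg in each group. For Snrpe the share was 17.4% with Nop16 siRNA and 15.8% with control siRNA, and for Snrpf 30.8% and 31.1%.

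Snrpd1 (ENSMUSG00000002477), Sm protein D1, had 27.8, 26.5 and 26.1 CPM with Nop16 siRNA, against 35.1, 34.2 and 32.7 CPM with control siRNA (log2 fold change −0.35, SE 0.0714, edgeR adjusted p = 5.09e-05). Snrpd2, its partner in the ring, lay at −0.32 with 40.3 ± 2.19 CPM with Nop16 siRNA and 50.3 ± 4.1 CPM with control siRNA. Snrpd3 was the Sm gene not called, with 28.0, 25.5 and 27.9 CPM with Nop16 siRNA, against 34.1, 25.4 and 30.9 CPM with control siRNA. The second control library was as low as the Nop16 siRNA libraries, and without it the fall was called with an edgeR adjusted p of 0.00819. Snrpb (ENSMUSG00000027404), which encodes SmB and SmB′ and binds SmD3 in the ring, was the most abundant Snrp gene per length, at 109 CPM per kilobase with Nop16 siRNA and 116 with control siRNA. It had 221, 211 and 213 CPM with Nop16 siRNA, against 237, 227 and 223 CPM with control siRNA. The 2 groups differed little (log2 fold change −0.09, SE 0.0335, edgeR adjusted p = 0.0203). The call was lost when Nop16 siRNA library 2 or 3 was left out, at 0.0782 and 0.0734, or control siRNA library 1, at 0.153.

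Among the proteins particular to 1 snRNP, the U1 genes of the Snrp family, Snrpc and Snrpa, were called lower. Snrnp70, which encodes the U1 70K protein and falls outside the symbol rule, was not called, at 251 ± 4.19 CPM with Nop16 siRNA and 243 ± 9.44 CPM with control siRNA (SD, n = 3 each, log2 fold change 0.05, edgeR adjusted p = 0.219). Snrpc, the U1 protein that contacts the 5′ splice site, had 67.1 ± 5.43 CPM with Nop16 siRNA and 78.8 ± 2.31 CPM with control siRNA, a log2 fold change of −0.23. Snrpa, whose protein binds a stem-loop of U1 RNA, had 70.6, 72.1 and 70.8 CPM with Nop16 siRNA, against 79.8, 71.9 and 82.3 CPM with control siRNA, so its groups overlapped (log2 fold change −0.13, edgeR adjusted p = 0.0253, DESeq2 adjusted p = 0.0898). Its call was also lost when Nop16 siRNA library 1 or 3 was left out, at 0.0565 and 0.0665, or control siRNA library 1 or 3, at 0.102 and 0.184. With each library thinned to the smallest total the call was lost too, at an edgeR adjusted p of 0.0562. The 2 genes of the U2-specific heterodimer went in opposite directions. Snrpb2, which binds a stem-loop of U2 RNA, had 59.5, 56.0 and 57.0 CPM with Nop16 siRNA, against 62.8, 66.1 and 62.4 CPM with control siRNA (log2 fold change −0.15, edgeR adjusted p = 0.0126). Snrpa1, its leucine-rich repeat partner, had 45.0, 41.3 and 46.9 CPM with Nop16 siRNA, against 39.3, 40.0 and 39.3 CPM with control siRNA (log2 fold change 0.17, SE 0.0614, edgeR adjusted p = 0.0213). The rise of Snrpa1 was lost with DESeq2 at an adjusted p of 0.0692 and when any of 4 libraries was left out, at 0.0566 and 0.169 for Nop16 siRNA libraries 1 and 3 and 0.0502 and 0.0608 for control siRNA libraries 1 and 3. The fall of Snrpb2 was lost when the second library of either group was left out, at 0.0582 for Nop16 siRNA and 0.0857 for control siRNA.

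The Sf3 genes, subunits of the SF3A and SF3B complexes of the U2 snRNP, were the most divided of the larger families, with 5 of 9 called lower, 2 called higher and a median of −0.13. Their summed level was 997 ± 3.40 CPM with Nop16 siRNA and 1074 ± 14.0 CPM with control siRNA (SD, n = 3 each), or 92.8%. All genes of SF3A were called lower. Sf3a2 (ENSMUSG00000020211) had 36.5, 30.5 and 32.6 CPM with Nop16 siRNA, against 41.2, 40.0 and 39.2 CPM with control siRNA (log2 fold change −0.28, SE 0.0674, edgeR adjusted p = 0.000486). Sf3a3 (ENSMUSG00000028902) had 56.1, 53.7 and 57.9 CPM with Nop16 siRNA, against 62.6, 62.7 and 63.6 CPM with control siRNA (log2 fold change −0.17, SE 0.0516, edgeR adjusted p = 0.00484). Sf3a1 lay at −0.13 with an edgeR adjusted p of 0.0172 and was lost with DESeq2, at 0.0508, and without the third Nop16 siRNA library, at 0.0553, or the second control siRNA library, at 0.058.

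Within SF3B the subunits differed. Sf3b1 (ENSMUSG00000025982, chr1:54985169-55027481, minus strand), the large scaffold subunit that clamps the branch helix, had 357, 370 and 358 CPM with Nop16 siRNA, against 397, 398 and 396 CPM with control siRNA. The fall was small and the control libraries were tightly placed (log2 fold change −0.13, SE 0.0296, edgeR adjusted p = 0.000132). Sf3b2 (ENSMUSG00000024853) had 206, 196 and 204 CPM with Nop16 siRNA, against 240, 241 and 223 CPM with control siRNA (log2 fold change −0.22, SE 0.0344, edgeR adjusted p = 3.59e-07). Sf3b4 (ENSMUSG00000068856), which binds Sf3b2 protein, was not called, with 95.3, 96.6 and 98.1 CPM with Nop16 siRNA, against 98.7, 95.8 and 99.9 CPM with control siRNA (ratio interval 0.930 to 1.05). It was the most abundant Sf3 gene per length, at 44.7 CPM per kilobase with Nop16 siRNA and 45.4 with control siRNA. Sf3b5, a small subunit, was not called either, at 38.1 ± 1.08 CPM with Nop16 siRNA and 37.6 ± 2.81 CPM with control siRNA.

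The called rises in SF3B were Sf3b3 and Sf3b6. Sf3b3, the β-propeller scaffold, had 107, 104 and 104 CPM with Nop16 siRNA, against 97.7, 98.6 and 92.7 CPM with control siRNA (log2 fold change 0.12, SE 0.0419, edgeR adjusted p = 0.0133). Without the third control library its adjusted p was 0.0924. Sf3b6 (ENSMUSG00000037361), the p14 subunit next to the branch point adenosine, had 31.9, 33.0 and 34.4 CPM with Nop16 siRNA, against 28.9, 29.4 and 29.4 CPM with control siRNA. The groups did not overlap (log2 fold change 0.18, SE 0.0703, edgeR adjusted p = 0.03). Its call was lost with DESeq2, at 0.0776, and when Nop16 siRNA library 2 or 3 or any control siRNA library was left out, at 0.0544 to 0.135.

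In the U2af family the subunits of the heterodimer also differed. U2af1 (ENSMUSG00000061613), the small subunit that reads the AG of the 3′ splice site, had 70.4, 74.4 and 67.3 CPM with Nop16 siRNA, against 79.7, 81.5 and 79.6 CPM with control siRNA (log2 fold change −0.18, SE 0.0477, edgeR adjusted p = 0.00106). U2af2 (ENSMUSG00000030435), the large subunit that binds the polypyrimidine tract, had 135, 143 and 144 CPM with Nop16 siRNA, against 132, 127 and 137 CPM with control siRNA. Its groups overlapped (log2 fold change 0.09, SE 0.0382, edgeR adjusted p = 0.0421). Its call was lost with library sizes alone at 0.134, with DESeq2 at 0.111 and with limma-voom at 0.0507, and when any of 4 libraries was left out, at 0.116 and 0.191 for Nop16 siRNA libraries 2 and 3 and 0.0822 and 0.231 for control siRNA libraries 1 and 2. U2af1 over U2af2 in CPM, a ratio chosen after values were seen, was 0.520, 0.522 and 0.467 with Nop16 siRNA and 0.603, 0.640 and 0.583 with control siRNA. U2af1l4 (ENSMUSG00000078765), a paralogue of U2af1, was not called, with 18.7, 15.3 and 16.9 CPM with Nop16 siRNA, against 15.6, 17.3 and 16.8 CPM with control siRNA. It shared 65.6% of its exon bases with Gm49396 on the same strand, so its count cannot be assigned to 1 gene.

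**Figure D3:**
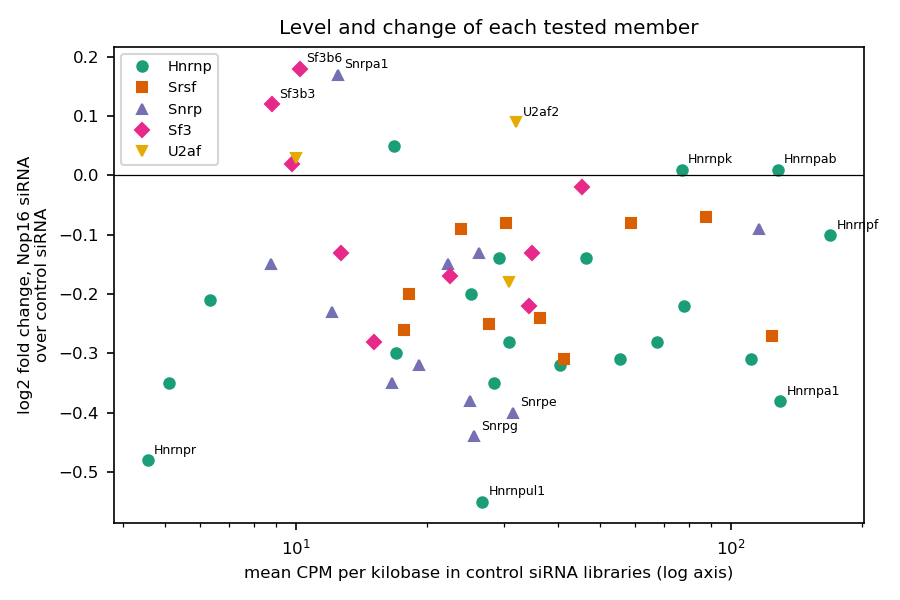
Log2 fold change of each tested member, Nop16 siRNA over control siRNA, against its mean CPM per kilobase in control siRNA libraries (log axis), with a marker per family. Falls occur from Hnrnpr at 4.56 to Hnrnpf at 169 CPM per kilobase, and the called rises Sf3b3, Sf3b6, Snrpa1 and U2af2 lie at 8.82, 10.2, 12.5 and 32.1.

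Other genes of the splicing machinery, in lists chosen by function with earlier results known, are given next. They are to be read beside the 45.4% of all genes called and the 58.9% among protein-coding genes at least as abundant as Hnrnph3. Some listed genes were less abundant than Hnrnph3. From each list, the called genes with the largest changes at a mean of 5 CPM or more are named. Among 46 other splicing regulators, 25 were called lower and 4 higher, which is 63.0% called, and the median lay at −0.13 on the log2 scale. By that rule the named genes there were Rbm3, a cold-inducible RNA-binding protein, at 87.9 CPM with Nop16 siRNA and 128 CPM with control siRNA (log2 fold change −0.55), Ptbp2 (−0.49) and Celf2 (−0.47). Mbnl3, below that level at 3.44 CPM with Nop16 siRNA and 5.76 CPM with control siRNA, had a larger called fall (−0.73). Of 19 U4/U6.U5 and LSm genes, 9 were called lower and 1 higher, which is 52.6% called. Among them were Lsm5 at 6.21 CPM with Nop16 siRNA and 10.7 CPM with control siRNA (−0.78), Prpf3 at −0.46 and Lsm8 at −0.36. Of the 7 snRNP genes named Snrnp, 3 were called lower, namely Snrnp40 (−0.23), Snrnp48 (−0.18) and Snrnp200 (−0.11), and 0 higher, also at an unadjusted p below 0.05 in edgeR and by DESeq2. DESeq2 did not call Snrnp48, at an adjusted p of 0.115.

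The shares called among the Snrnp, PRP19, helicase and kinase lists, 42.9%, 43.8%, 44.4% and 44.4%, were near that of all genes. They lay below the 58.9% among protein-coding genes at least as abundant as Hnrnph3. The lists of the SMN complex and snRNP assembly and of the exon junction complex and nonsense-mediated decay, at 26.7% and 13.3%, lay below both. Of 16 genes of the PRP19 complex and related proteins, 4 were called lower and 3 higher, and the largest change was a rise of Bud31 to 55.9 CPM with Nop16 siRNA, against 38.3 CPM with control siRNA (log2 fold change 0.54, edgeR adjusted p = 5.82e-12). Bcas2 (−0.28) and Cdc5l (−0.23) of that list fell. Of 9 spliceosome helicases, 3 were called lower and 1 higher, with Dhx38 at 0.22, Ddx41 at −0.19 and Ddx46 at −0.13. Of 9 genes in the list of SR protein kinases, 3 were called lower and 1 higher, with Srpk3 at −0.44, Srpk2 at 0.28 and Clk1 at −0.24. In the list of the SMN complex and snRNP assembly, which loads Sm proteins onto small nuclear RNAs, 3 of 15 were called higher and 1 lower, with Gemin4 at 0.33, the arginine methyltransferase Prmt5 at 0.26 and Ddx20 at −0.26. Of 15 genes of the exon junction complex and nonsense-mediated decay, 1 was called higher and 1 lower, Upf3b at 0.20 and Upf3a at −0.30, and the rise of Upf3b was lost with DESeq2, at an adjusted p of 0.117. The difference between these lists and the splicing factor families was not tested.

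**Figure D4:**
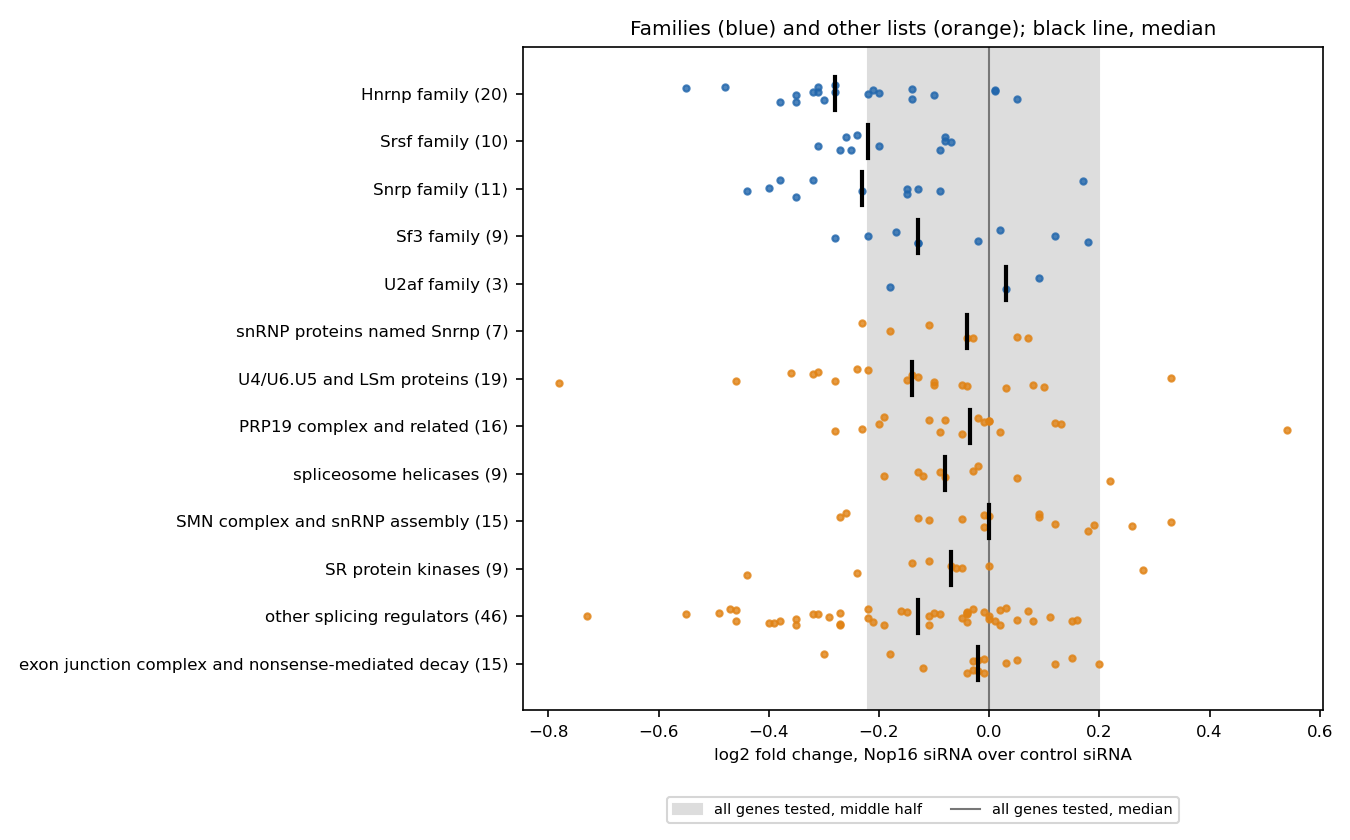
Log2 fold changes, Nop16 siRNA over control siRNA, of the tested genes of each family (blue) and of each other splicing list (orange), with medians (black lines), the number of genes in brackets, and the interquartile range of all genes tested in grey. Family medians run from −0.28 for Hnrnp to 0.03 for U2af, and list medians from −0.14 to 0.00.

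RefSeq promoter windows, 250 bases before to 50 after a gene's start, were found for 46 of the 53 tested members and for 9021 tested protein-coding genes in all. In the stretches printed above, Hnrnpd held GC boxes at −107, −89 and −66 and an E-box at −32, counted from the start to the first base of the motif, and Srsf1 held a GC box on the other strand at −82, a CRE core on the other strand at −94 and an E2F-type motif at −67. All 12 motifs searched, on both strands, are given here with the share of members and then of all genes with a window. A gene was counted when any of its windows held the motif, and the 46 members had 61 windows. The shares were not adjusted for windows per gene, which were not counted for the 9021 genes, so differences between them may partly reflect that number. The CCAAT box, searched as those 5 letters, was in 50% and 43.4%. The GC box (GGGCGG) was in 71.7% and 69.3%. The TATA box (TATAAA) was in 13% and 8.35%. The ETS core (CCGGAAG) was in 34.8% and 21.7%, with 6 of 7 Sf3 genes but 2 of 18 Hnrnp genes. The CRE core (TGACG) was in 54.3% and 36.3%, and the full CRE (TGACGTCA), which contains the core, in 4.35% and 3.69%. The E-box (CACGTG) was in 13% and 12%, YY1 (AAGATGGC) in 4.35% and 5.7%, the NRF1 core (GCATGCGC) in 8.7% and 6.45%, and the longer NRF1 palindrome, which contains that core, in 2.17% and 2.58%. Of the E2F-type motifs, TTTCCCGC was in 10.9% and 2.55%, which is 5 of 46 members, and TTTGGCGC in 0% and 1.16%. These are matches of letters, described without a test, and were chosen with results of the series known.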

How the data were processed

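The authors deposited raw counts of fragments per gene. Per the file headers, featureCounts 2.0.1 counted read pairs on filtered Ensembl release 101 models of GRCm38, with strand setting 2, a minimum overlap of 10 bases, and multi-mapped and multi-overlapping fragments counted for every gene matched. The submitters' processing notes list Trim Galore and HISAT2 2.2.1. Symbols and biotypes came from GENCODE mouse release M21 for 55141 of 55401 genes, and lengths from the count tables. edgeR 4.0.16 (filterByExpr, TMM, robust quasi-likelihood fit) tested 14269 genes in R 4.3.3, with Benjamini-Hochberg adjustment over all of them. The alternatives used DESeq2 1.42.0 and limma 3.58.1 among others. Counts were also simulated for 14063 genes with this comparison's design, with 50 genes changed at each of 1.2, 1.5, 2 and 3-fold. The recovered share was 54% for 1.2-fold changes and 96% for 1.5-fold changes, larger changes were all found, and 10 of 185 calls were false. Far more genes were called in the data, and the simulated spread followed its trend over abundance, so these values may not carry over. Counts of 3 per library, the limit that a count of 0 allows, equal 0.129 to 0.194 CPM and cover counting error only.

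The members, families, lists, promoter motifs and ratios were chosen with earlier results of these data known. In each family, values in every library were required for the 4 members with the largest absolute log2 fold change at a mean of 5 CPM or more, the 2 highest per length, and all members of a family of 4 or fewer; other members were added for their role. Each list names up to 3 called genes by size of change, at a mean of 5 CPM or more. Of 137 list entries, 136 matched a gene. Near copies are gene models with a transcript at least 90% identical over 200 bases and 50% of the shorter transcript.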

Additional observations from a re-analysis of the deposited data

How the results depend on the processing

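Of the 39 falls, 6 (Hnrnpul1, Hnrnpr, Hnrnpa1, Hnrnpa3, Snrpg and Snrpe) passed a test against a minimum fold of 1.2, in which all genes called numbered 2361. By family that left 4 Hnrnp and 2 Snrp falls, 0 falls in the others and 0 rises in any. Most falls are therefore too small to be placed beyond 1.2-fold at this depth. In this test the share called was smaller among the 53 members tested than among all 14269 genes tested. The excess of calls among members in the main fit was thus not seen at this minimum fold. The count of falls stayed between 35 and 40 under every scaling, filter and tool tried and with each library left out. The rises were less stable. They numbered 2 with library sizes alone and with no filter, 1 with DESeq2, and 1 to 3 with 1 library left out. By family, the Snrp rise was 0 with DESeq2 and 0 to 1 with a library left out. Sf3 rises were 1 with library sizes alone, DESeq2 or no filter, and 0 to 2 with a library left out. The U2af rise was 0 under each of those 3 settings, with upper quartile scaling, with TMM factors from protein-coding genes without ribosomal protein genes and with limma-voom, and 0 to 1 with a library left out. The Hnrnp median was −0.30 with library sizes alone and with those TMM factors, −0.29 with upper quartile scaling, and −0.29 to −0.27 with a library left out. The Sf3 median was −0.15 in the first 2 of these settings and −0.14 to −0.12 with a library left out. The U2af median ran from −0.04 to 0.08 with a library left out, so its direction is not settled. The cause of these shifts was not tested.

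Multi-mapped fragments were counted, so members with a near-identical copy (at least 90% identity) were left out under 3 definitions of a copy, of which the last 2 were chosen after the data were seen. They are an alignment of 200 bases, of 50% of the shorter transcript, and both limits together, with 21, 21 and 23 tested members left. In that order, the falls numbered 13, 14 and 15, and the medians over members were −0.15, −0.20 and −0.17. The rises numbered 3 under each definition. Of all 14269 genes tested, with none left out, 22.4% were called lower and 23.0% higher. In Hnrnp the falls were 3, 5 and 5 with medians of −0.22, −0.26 and −0.22. In Srsf they were 5 each time with a median of −0.14. In Snrp there was 1 fall and 1 rise each time, with a median of −0.09, so no direction can be read for that family. In Sf3 the second definition gave 3 falls and a median of −0.06. In U2af, falls and rises were both 0 under all 3, by construction, since each of its genes has a copy and none was left. Fewer genes are counted by construction.

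The titles carry replicate numbers, but no label says that they pair the samples. Deviations of same-numbered libraries from their group means correlated at 0.01, −0.01 and −0.02. With 3 libraries per group, such values cannot show whether the samples were handled as pairs. With the replicate number as a block, all genes called numbered 6429, against 6482 without it, with 40 falls and 4 rises among members.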
